A study of Homo sapiens with 66 samples.

Results

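RBM17, SRP68, BRD8, MIGA1, PSPH, PPP6C and MARS1 are 7 of the 57820 genes counted, and each holds an intron or an editing cluster region that stood among those with the largest gain of reads in hnRNPC-targeted THP-1 cells. THP-1 cells are an established line from a human monocytic leukemia. An editing cluster region (ECR) is a stretch in which the authors found adenosine-to-inosine (A-to-I) editing sites close together, extended on both sides and merged. The genes were taken by Ensembl identifier, with the 120 of 197626 deposited introns that lie inside them and the 6 ECRs that overlap them, of 2875 ECRs in study 1 and 2794 in study 2. Of the 120 pieces, 99 lie between exons of the gene itself. The other 21 belong to overlapping genes or flank the outermost exons. The genes were chosen by the reads on these introns and ECRs in hnRNPC-targeted cells of study 1, so those values are given as a description, with no test. The question asked of the data was which introns of each gene gained reads and which did not.

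hnRNPC is a nuclear RNA-binding protein that attaches to runs of uridine, among them those of Alu repeats transcribed in antisense, and it keeps splicing factors away from cryptic splice sites there. ADAR deaminates adenosine in double-stranded RNA to inosine, which sequencing reads as guanosine. Alu copies in opposite orientation within one intron can pair into such double-stranded RNA, which the sensor MDA5 can bind. The genes themselves have unrelated functions. RBM17 is a splicing factor that acts at 3′ splice sites, SRP68 is a protein of the signal recognition particle, and BRD8 is a bromodomain subunit of the NuA4/TIP60 histone acetyltransferase complex. MIGA1 acts in mitochondrial fusion, PSPH carries out the last step of serine synthesis, PPP6C is the catalytic subunit of protein phosphatase 6, and MARS1 charges the methionine tRNA.

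Study 1 used 48 libraries of total RNA from a STING-deficient, Cas9-transgenic THP-1 clone, 3 in each of 16 groups. Cells were nucleofected with nontargeting gRNA (CTRL) or with gRNAs against hnRNPC, ADAR, both (ADAR+hnRNPC) or GFP and harvested on days 3, 4 and 5, and CTRL cells given IFN-alpha were harvested on day 4. Study 2 used 18 libraries from day 4, 2 in each of 9 groups, of a wild-type (WT) Cas9-transgenic clone with other gRNAs: total RNA and digitonin-soluble (cytosolic enriched) RNA of CTRL, hnRNPC-, ADAR- and ADAR+hnRNPC-targeted cells, and nuclear RNA of hnRNPC-targeted cells. Each study thus rests on 1 clone, and the nucleofected cells were harvested as a mixed population, in which a large change in some cells and a smaller one in all cells cannot be told apart. The study describes its replicates as independent experiments.

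The gRNAs against hnRNPC are shown because their cut lies in the same exon in both studies, with the PAM in capitals (both on the plus strand of GRCh37, exon 3 of 9, in the coding sequence):

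hnRNPC.1, study 2, chr14:21702173-21702192: ctcattaacatactgaacgaAGG

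hnRNPC.2, study 1, chr14:21702284-21702303: gagattcccaatgaatacacGGG

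Each library held 95107690 to 152829008 gene counts in study 1 and 49666958 to 73873756 in study 2. Levels are given as CPM, counts per 1000000 of the library's scaled gene total. HNRNPC was measured at 725 to 847 CPM in CTRL of study 1, at 314 to 382 CPM in hnRNPC-targeted and at 310.3 to 447 CPM in ADAR+hnRNPC-targeted cells. In study 2, HNRNPC reached 642 to 934 CPM in CTRL and 338 to 530.3 CPM in hnRNPC-targeted cells. With both targeted it was at 429 and 515 CPM in total RNA there, against 642 and 894 CPM in CTRL. In cytosolic RNA it was at 612 and 672 CPM, against 819 and 934 CPM in CTRL. Of the monocytic markers, SPI1 (43.8 to 71.3 CPM in study 1), CD33, LYZ, ITGAM, CSF1R and MPO were expressed in all libraries, while CD68 was at 0 to 0.284 CPM and CD14 at 0.0967 to 4.22 CPM. The T cell marker CD3E (0 to 0.0766 CPM), EPCAM and COL1A1 were near 0. In study 2, library 2 of CTRL total RNA stood apart: its log2 differences to library 1 had an SD of 0.344 over 10776 genes, against 0.148 to 0.265 in the other 8 groups. HNRNPC was at 642 CPM in that library and at 894 CPM in library 1, so results that rest on it are given with and without it.

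The longest uridine run is shown for the called intron of each gene. The windows are given in GRCh37 on the strand of the gene, with the run in capitals (T for U), because hnRNPC binds such runs:

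RBM17 intron 6, chr10:6149439-6149468: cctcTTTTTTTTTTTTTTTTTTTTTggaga

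SRP68 intron 10, chr17:74042541-74042570: ttttgTTTTTTTTTTTTTTTTTTTccactg

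BRD8 intron 2, chr5:137508347-137508376: TTTTTTTTTTTTTTTTTTTTTTgtagggat

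MIGA1 intron 1, chr1:78257242-78257271: aagTTTTTTTTTTTTTTTTTTTTTTTaaac

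PSPH intron 2, chr7:56100339-56100368: cccggccTTTTTTTTTTTTTTTgagactcg

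PPP6C intron 1, chr9:127935681-127935710: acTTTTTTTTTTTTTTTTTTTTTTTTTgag

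MARS1 intron 6, chr12:57888276-57888305: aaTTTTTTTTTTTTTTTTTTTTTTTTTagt

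All 7 introns held a run of at least 9 uridines. The longest was 30 bases in BRD8, of which the window shows the last 22, and the shortest 15 in PSPH. A run of this length is common: among introns of the other genes, 90.8% of the 797 that were called higher in hnRNPC-targeted cells on day 4 and 66.0% of the 20140 that were not held one. Between introns of 1000 to 3000 bases these shares were 79.4% and 41.6%, and between introns of 8000 to 25000 bases 99.1% and 94.8%. Nor was a long run restricted to the introns that gained reads. MARS1 intron 10, with 7398 bases, held 6 runs with the longest at 25 bases, as did MARS1 intron 6 with 7512 bases, and its reads in hnRNPC-targeted cells were 0.922 times those in CTRL, against 3.53 times for intron 6. RBM17 intron 3 held a run of 30 bases at a ratio of 1.32. Of the other features counted, GC content was 40.01% to 46.9% in the 7 introns, and stretches of 20 bases whose reverse complement lies in the same intron were present in 5 of them and absent in those of SRP68 and PSPH. Among introns of other genes, 60.4% of those called and 47.2% of those not called held such a stretch. This order depended on length. Between introns of 1000 to 3000 bases it was reversed, at 11.3% of those called and 13.1% of those not called. Called introns held such a stretch more often at 3000 to 8000 bases and at 8000 to 25000 bases, the latter with 89.5% and 81.4%.

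In each gene 1 intron passed the call for a gain of reads. An intron is called where its log2 fold change reaches 1 and its adjusted p in edgeR is 0.05 or lower. On day 4, 7 of the 99 introns were called higher in hnRNPC-targeted cells than in CTRL, 1 per gene, beside a background of 3.84% of all introns tested. The same 7 were called on days 3 and 5, beside backgrounds of 2.86% and 4.65%. Since these values chose the genes, the counts are fixed by the choice and nothing is read from them against the backgrounds. Of the 99 introns, 18 had enough reads for the test.

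RBM17 intron 6 of 12 held 4.90, 2.97 and 2.84 CPM in the CTRL libraries of day 4 and 35.5, 20.7 and 22.4 CPM in hnRNPC-targeted cells. Its 3 hnRNPC libraries lay far above the 3 CTRL libraries, with a log2 fold change of 2.88 ± 0.31 (SE). With 10.7 CPM per kilobase it was the most densely covered of the 7 introns in hnRNPC-targeted cells.

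SRP68 intron 10 of 15 rose from near nothing, with 0.635, 0.187 and 0.303 CPM in CTRL against 8.64, 4.27 and 4.76 CPM. These were 143 reads in CTRL and 2527 in hnRNPC-targeted cells, and the log2 fold change of 4.01 ± 0.35 ranked 4 among the 21876 introns tested. No other intron of SRP68 passed the filter on low counts, and intron 10 passed it through the libraries in which hnRNPC was targeted. That filter was an average log2 CPM of 1. All CTRL libraries of day 4 lay under it for BRD8 intron 2 and PSPH intron 2 as well.

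BRD8 intron 2 of 26 held 1.67, 0.993 and 0.968 CPM in CTRL and 19.5, 12.7 and 14.5 CPM in hnRNPC-targeted cells, a log2 fold change of 3.70 ± 0.30 (rank 6). MIGA1 intron 1 of 14 was already the main intronic source of reads in CTRL, at 6.29, 5.08 and 5.37 CPM, and held 23.1, 22.6 and 19.9 CPM in hnRNPC-targeted cells (1.97 ± 0.12). That SE was the smallest among the 7 introns.

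PPP6C intron 1 of 6 held 3.49, 2.47 and 1.92 CPM in CTRL and 11.6, 8.09 and 8.82 CPM in hnRNPC-targeted cells (1.86 ± 0.28). MARS1 intron 6 of 19 held 2.44, 1.67 and 1.57 against 9.08, 4.95 and 6.04 CPM (1.82 ± 0.32). PSPH intron 2 of 7 had the smallest gain, from 1.45, 0.899 and 1.10 to 4.06, 3.63 and 3.14 CPM (1.65 ± 0.19, rank 242). In all of these introns, all hnRNPC libraries lay above all CTRL libraries of the day.

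**Figure D1:**
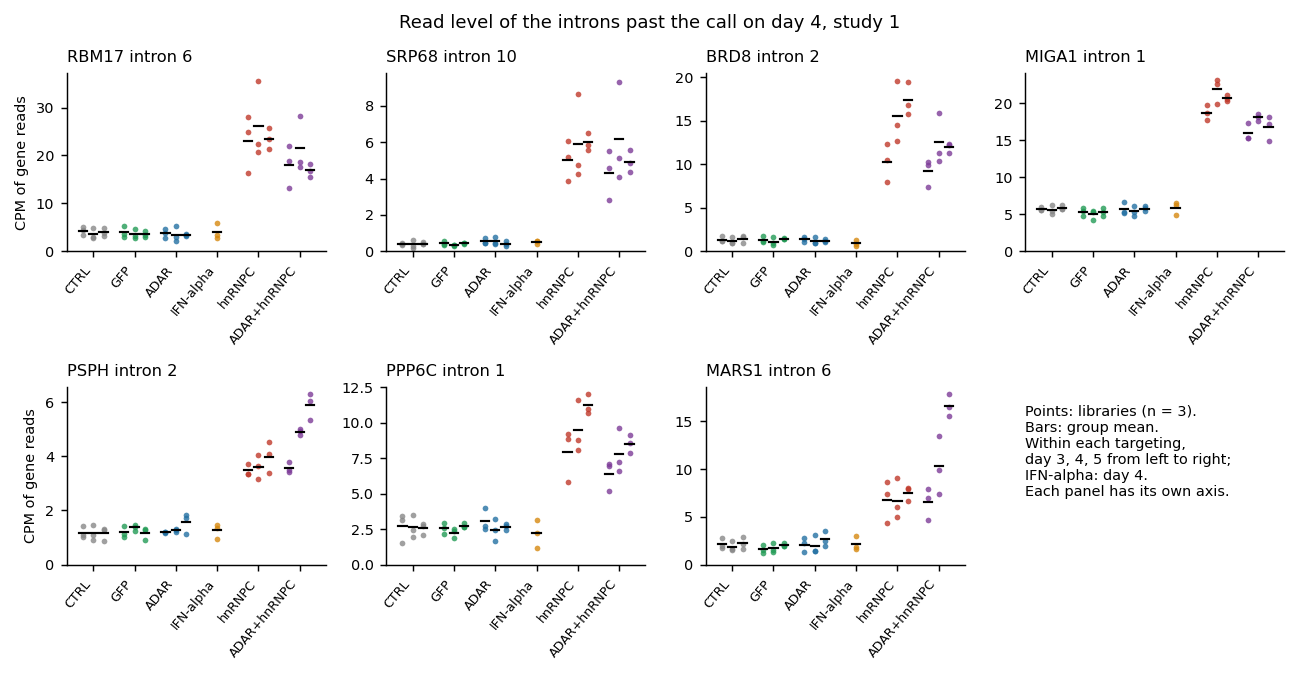
Reads on the called intron in each of the 7 genes, in CPM of the gene total (y axis), by what was targeted (x axis), with days 3, 4 and 5 from left to right within a group and 1 point per library. In every panel the hnRNPC- and ADAR+hnRNPC-targeted libraries lie above the CTRL, GFP, ADAR and IFN-alpha libraries.

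Most introns beside them changed less. The most-counted other intron of RBM17, intron 9, held 6.68, 5.42 and 4.28 CPM in CTRL and 7.80, 4.36 and 4.28 CPM in hnRNPC-targeted cells (0.01 ± 0.34). SRP68 intron 13 held 698 and 815 reads over the 3 libraries, and MIGA1 intron 6, at 28075 bases the longest intron of the 7 genes, held 402 and 517 reads. MARS1 intron 18 stood at a mean of 2.21 CPM in CTRL and 2.68 CPM with hnRNPC targeted. Of the 99 introns, 89 had at least 100 reads in these 6 libraries, and the 82 of them that were not called had a median ratio of hnRNPC-targeted to CTRL cells of 1.04, from 0.570 to 2.94. None of the 82 fell to a ratio of 0.5 or less.

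BRD8 and PSPH were less sharply divided. BRD8 intron 20 held 10.5, 10.5 and 9.08 CPM in CTRL and 15.9, 11.4 and 14.7 CPM in hnRNPC-targeted cells (0.48 ± 0.12), and the other introns of BRD8 had a median ratio of 1.33. In PSPH the other introns had a median ratio of 1.57, and intron 1 gained more reads than the called intron 2, from a mean of 6.78 to 13.2 CPM against 1.15 to 3.61 CPM. PSPH intron 1 lay just under the threshold, at 7.93, 6.68 and 5.72 against 15.37, 12.02 and 12.15 CPM (0.96 ± 0.18), and introns 3 and 5, too low for the test, had ratios of 2.29 and 2.94. PPP6C intron 6 held 3.48, 3.26 and 3.29 against 6.61, 5.38 and 5.13 CPM (0.77 ± 0.18). PSPH has a pseudogene copy, so its counts of uniquely mapped reads are uncertain.

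The called introns therefore took a larger share of all intronic reads of their genes, which follows from their call in these same libraries. On day 4, this share over the 7 genes was 15.4% in CTRL and 45.1% with hnRNPC targeted. It went from 17.4% to 60.6% in RBM17, from 3.55% to 36.9% in SRP68, from 4.24% to 30.9% in BRD8 and from 52.9% to 81.7% in MIGA1. In PSPH, PPP6C and MARS1 it went from 11.5% to 18.3%, from 27.7% to 49.8% and from 10.7% to 29.0%.

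**Figure D2:**
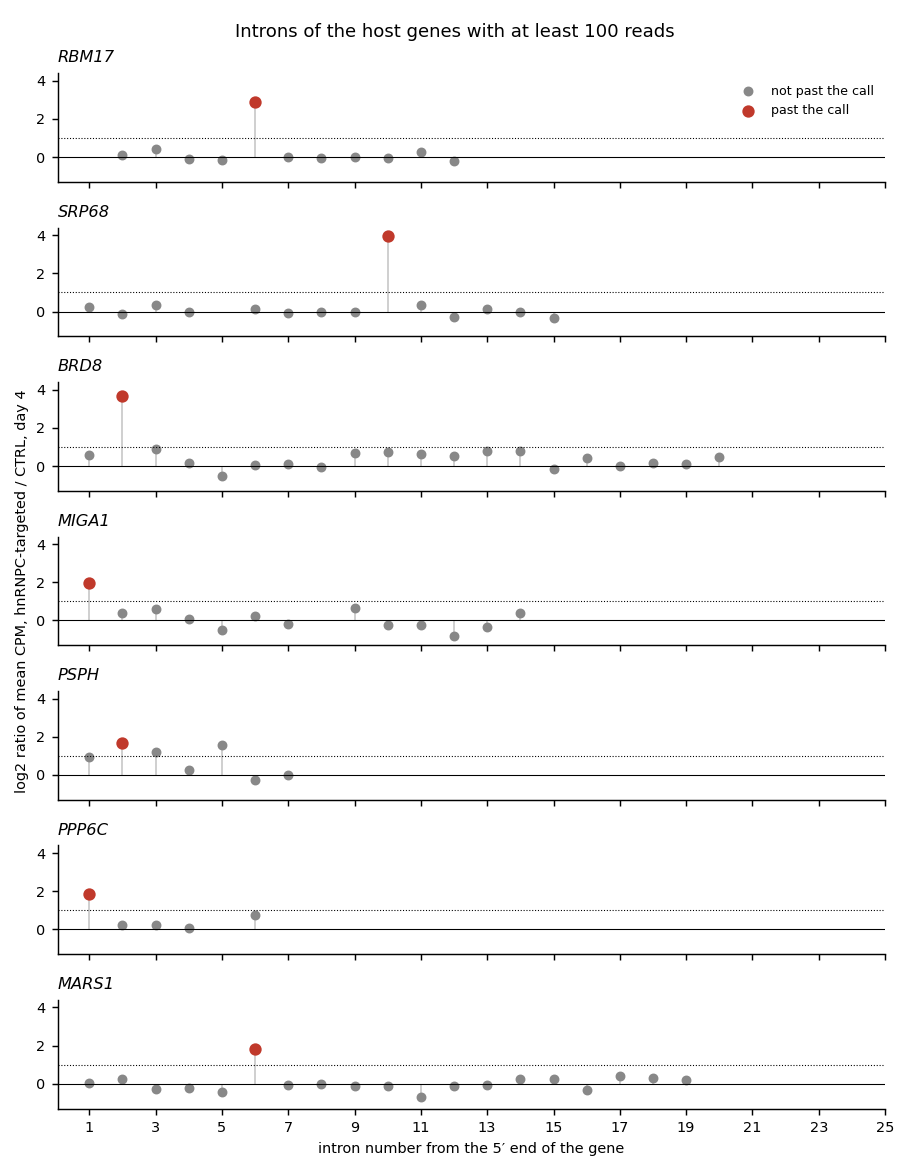
Log2 ratio of mean CPM in hnRNPC-targeted to CTRL cells on day 4 (y axis) for each intron with at least 100 reads, by its number from the 5′ end of the gene (x axis), with 1 panel per gene and introns past the call in red. Each gene has 1 red intron, and the other introns of RBM17 and SRP68 lie near a log2 ratio of 0, while several of BRD8 and PSPH lie above it.

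Of the 21 pieces that are not introns of the 7 genes, 1 was called higher on day 4. It is 88 bases long, lies at the 3′ end of the MARS1 interval and belongs to DDIT3, a stress-response transcription factor encoded on the opposite strand. It held 1.197, 1.37 and 1.51 CPM in CTRL and 3.78, 2.08 and 3.15 CPM in hnRNPC-targeted cells, and without replicate 1 of the latter, left out on all days as in each such fit of study 1, its log2 fold change of 1.14 was 0.95. With GFP-targeted cells as the control it was 0.84. Whether the counting used strand was not stated in the sources used here, so reads of the 2 genes cannot be told apart. ARHGAP9 likewise overlaps the 5′ end of the MARS1 interval.

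With ADAR targeted too, the same 7 introns held more reads than with ADAR targeted alone. The log2 fold change of ADAR+hnRNPC- over ADAR-targeted cells on day 4 was 2.62 in RBM17 intron 6, 3.49 in SRP68 intron 10, 3.36 in BRD8 intron 2, 1.74 in MIGA1 intron 1, 1.96 in PSPH intron 2, 1.70 in PPP6C intron 1 and 2.37 in MARS1 intron 6. All 7 were called on each day, beside backgrounds of 1.67%, 5.47% and 6.28% higher on days 3, 4 and 5. As the genes were chosen by reads in hnRNPC-targeted cells of study 1, nothing is read from this count against the backgrounds. PPP6C intron 1 was nearest the threshold on day 3 (1.06 ± 0.27), and its call was lost without any 1 of 4 replicates (0.93 to 1.00). MARS1 intron 6 was the 1 member intron called between ADAR+hnRNPC- and hnRNPC-targeted cells, on day 5, beside a background of 2.41% higher. It held 16.5, 15.6 and 17.8 CPM with both targeted and 7.87, 6.68 and 8.04 CPM with hnRNPC targeted (1.14 ± 0.31). MARS1 introns 13 and 18 were higher there too, under the threshold (0.996 ± 0.25 and 0.71 ± 0.27). The level of the gene, summed over exons, also rose (1.08 ± 0.09).

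ADAR targeting, GFP targeting and IFN-alpha gave no such gain. No intron, ECR or gene of the 7 was called against CTRL in these comparisons on any day (edgeR's quasi-likelihood test). At an unadjusted p under 0.05 there were 1, 0 and 3 genes, 0, 0 and 1 introns and no ECRs with ADAR targeted on days 3, 4 and 5. The corresponding numbers were 0, 0 and 1 genes, no introns and 0, 1 and 0 ECRs for GFP and 3 genes, no introns and 1 ECR for IFN-alpha. Many genes reached that p: of all 13193 tested, 633, 1981 and 3797 did with ADAR targeted, 609, 1120 and 3393 with GFP targeted and 4240 with IFN-alpha. So did 922 of 21876 introns with ADAR targeted on day 5, and of 2528 ECRs 157 with GFP targeted on day 4 and 682 with IFN-alpha. SRP68 intron 10 ranged from 0.297 to 0.804 CPM over the ADAR libraries and from 0.317 to 0.564 CPM over the GFP libraries, beside 0.187 to 0.635 CPM in CTRL. Few features of other genes passed the call. The shares called in either direction with ADAR targeted were 0.0%, 0.0682% and 0.296% of genes, 0.0% of introns on each day and 0.0%, 0.0791% and 0.0791% of ECRs. With GFP targeted they were 0.0227%, 0.0% and 0.25% of genes, 0.0%, 0.0% and 0.00457% of introns and 0.0%, 0.0396% and 0.0% of ECRs. With IFN-alpha they were 1.32% of genes, 0.823% of introns and 0.87% of ECRs. Neither limma-voom nor DESeq2 called a member in these comparisons.

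The total level of the genes, summed over exons, followed these introns only in part. On day 4, RBM17 stood at a mean of 87.6 CPM in CTRL and 116 CPM in hnRNPC-targeted cells (log2 fold change 0.40), and BRD8 at 66.0 and 97.7 CPM (0.57). SRP68 went from 41.7 to 50.5 CPM, MIGA1 from 16.2 to 19.1 CPM and PSPH from 27.4 to 33.5 CPM (0.28, 0.23 and 0.29). PPP6C and MARS1 were lower, at 88.7 and 75.1 CPM and at 124 and 103 CPM (-0.24 and -0.26), although their introns held more reads. No gene of the 7 was called against CTRL on any day, beside backgrounds of 1.02%, 3.18% and 7.68% in either direction. PPP6C reached a log2 fold change of -0.63 on day 5.

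MARS1 was the 1 gene of the 7 that passed the call between ADAR+hnRNPC- and hnRNPC-targeted cells. On day 5 it stood at 222, 218 and 248 CPM with both targeted and at 111, 105 and 110 CPM with hnRNPC targeted, a log2 fold change of 1.08 ± 0.09 beside a background of 6.17% higher. In CTRL of that day it was at 127, 121 and 187 CPM, so library 3 lay above the other two. In study 2, the same comparison in cytosolic RNA gave 1.01 ± 0.11 (edgeR's quasi-likelihood test, adjusted p = 1.19e-05, background 6.37% higher), which fell to 0.90 without hnRNPC cytosolic library 1 and to 0.95 without ADAR+hnRNPC cytosolic library 1, under the threshold on fold. There, MARS1 rose also with ADAR targeting alone by less than the threshold on fold, in total RNA by 0.60 ± 0.11 (0.52 ± 0.13 without CTRL library 2). Between ADAR+hnRNPC- and hnRNPC-targeted cells, PSPH rose as well, under that threshold. On day 5 PSPH went from a mean of 32.0 to 48.4 CPM (0.59 ± 0.08), and in study 2 it rose by 0.59 ± 0.10 in total and 0.58 ± 0.10 in cytosolic RNA. The remaining genes ranged from -0.48 to 0.00 on day 5.

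The 6 ECRs lie in the same introns or at the end of a gene. In GRCh37, the BRD8 ECR spans chr5:137507963-137512562 in intron 2, the MIGA1 ECR chr1:78254095-78257808 in intron 1, the PPP6C ECR chr9:127936079-127938109 in intron 1 and the MARS1 ECR chr12:57886808-57888929 in intron 6. PSPH has 2 ECRs. The intronic one spans chr7:56107147-56110853 in intron 1, not in intron 2 that was called, and the other, chr7:56077288-56080110, overlaps intron 7 and extends past the 3′ end of the gene. RBM17 and SRP68 overlap no ECR.

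The PPP6C ECR had the largest gain of all 2528 ECRs tested on each of the 3 days. It held 0.202, 0.193 and 0.118 CPM in CTRL of day 4 and 5.82, 3.79 and 4.23 CPM in hnRNPC-targeted cells (log2 fold change 4.76 ± 0.35). The BRD8 ECR ranked next, with 1.27, 0.740 and 0.711 against 18.02, 11.95 and 13.66 CPM (4.02 ± 0.31). The MARS1 ECR held 0.423, 0.320 and 0.382 against 4.55, 2.498 and 2.95 CPM (3.15 ± 0.56). In these CTRL libraries the PPP6C, BRD8 and MARS1 ECRs had means of 23, 119 and 50.7 reads. They passed the filter on low counts through the libraries in which hnRNPC was targeted.

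The MIGA1 ECR held 2.97, 2.47 and 2.90 against 15.64, 16.03 and 13.83 CPM (2.45 ± 0.12), and the intronic PSPH ECR 2.77, 2.48 and 2.09 against 7.15, 5.89 and 5.96 CPM (1.37 ± 0.15). The PSPH ECR at the 3′ end held 10.5, 11.99 and 11.3 against 12.1, 12.9 and 13.3 CPM (0.18 ± 0.09). On each day 5 of 6 ECRs passed the call, a count that the choice of the genes sets and from which nothing is read against the backgrounds of 5.26%, 6.01% and 5.5%. As in its intron, the MARS1 ECR was higher on day 5 with both targeted, at 11.9, 10.6 and 12.1 CPM, than with hnRNPC targeted, at 4.51, 3.46 and 4.56 CPM (1.46 ± 0.49, background 2.65% higher), a call lost without hnRNPC replicate 2 (1.35). Against ADAR-targeted cells, 4, 5 and 5 of 6 ECRs were called higher with both targeted (backgrounds of 3.01%, 7.16% and 7.63%), from which nothing is read either. On day 3 the call of the MARS1 ECR there (1.64 ± 0.52) was lost without ADAR replicate 3 or ADAR+hnRNPC replicate 2.

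Within the introns, reads rose at all editing sites that the paper kept. A site was kept only where all libraries of at least 1 treatment had at least 10 reads. In CTRL of day 4, the highest mean reads per site and library was 5 in BRD8, 4.33 in PPP6C and 5.33 in MARS1. The sites of these ECRs were thus not kept through those libraries, and a gain at all of them is in part set by that choice. At the 178 sites of BRD8, which lie 1003 to 4432 bases from the start of intron 2, the median reads per site and library went from 2 in CTRL to 29 in hnRNPC-targeted cells on day 4. At the 51 sites of MIGA1 it went from 12.7 to 57, at the 141 intronic sites of PSPH from 9 to 19, at the 4 sites of PPP6C from 3.33 to 101 and at the 24 sites of MARS1 from 3.5 to 29. Reads in hnRNPC-targeted cells exceeded those in CTRL at all of these sites. In CTRL cells given IFN-alpha, the medians were 1.33, 10.7, 5, 2.33 and 2.67.

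**Figure D3:**
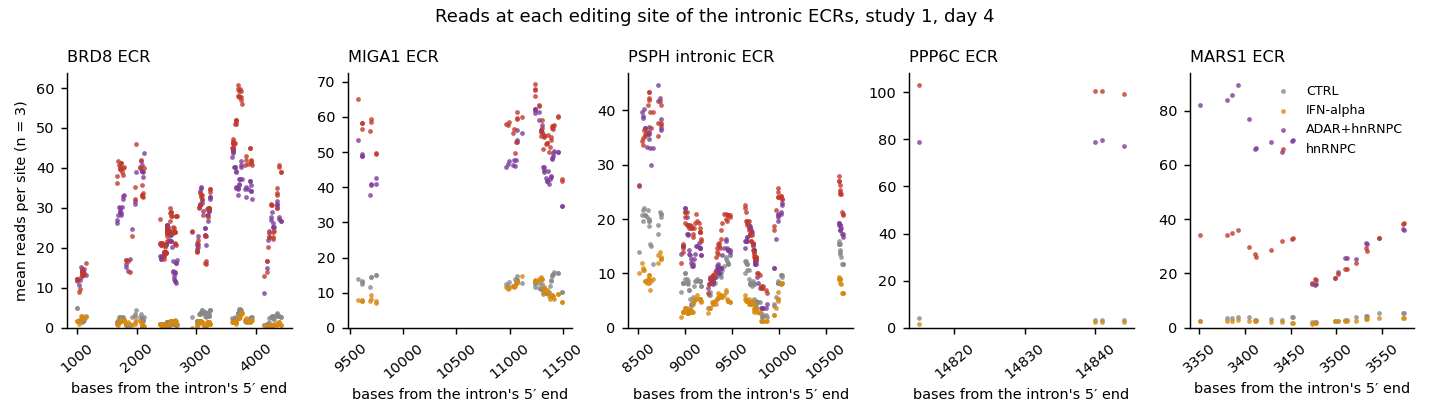
Mean reads per library at each editing site (y axis) by its distance in bases from the 5′ end of the intron (x axis), day 4 of study 1, for CTRL, IFN-alpha, hnRNPC- and ADAR+hnRNPC-targeted cells, with 1 panel per intron. All sites of hnRNPC-targeted cells lie above those of CTRL, and so do those of ADAR+hnRNPC-targeted cells except in PSPH, where 138 of 141 do.

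Study 2 allowed a test of the ECRs with another clone and other gRNAs. The genes were chosen by values of study 1, but with earlier results of these data known, so this test is not fully independent of the choice. The PPP6C and MARS1 ECRs also passed the filter on low counts through the libraries in which hnRNPC was targeted. PPP6C held a mean of 37 reads in CTRL and 18.5 with ADAR targeted in total RNA, and MARS1 45 and 71. In total RNA, 5 of 6 ECRs were higher in hnRNPC-targeted than in CTRL cells, beside a background of 1.3% higher of 2470 ECRs tested. The BRD8 ECR held 1.36 and 3.01 CPM in CTRL and 13.4 and 8.69 CPM in hnRNPC-targeted cells (log2 fold change 2.35 ± 0.35, adjusted p = 0.000790, edgeR's quasi-likelihood test). The PPP6C ECR held 0.385 and 0.939 against 3.58 and 2.83 CPM (2.30 ± 0.44, adjusted p = 0.00420), and the MARS1 ECR 0.555 and 1.03 against 3.36 and 2.56 CPM (1.91 ± 0.39, adjusted p = 0.00683).

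In each of these, and in the MIGA1 and intronic PSPH ECRs, CTRL library 2 lay above CTRL library 1 and below both hnRNPC libraries. MIGA1 rose by 1.31 ± 0.19 (adjusted p = 0.000697) and the intronic PSPH ECR by 1.40 ± 0.24 (adjusted p = 0.00247). Without CTRL library 2, which leaves 1 CTRL library that is taken to vary like the other groups, the 5 ECRs had log2 fold changes of 3.02 in BRD8, 3.05 in PPP6C, 2.41 in MARS1, 1.59 in MIGA1 and 1.71 in PSPH. The background of higher calls was then 2.39%. Without hnRNPC library 1, MARS1 missed the call (1.68, adjusted p = 0.0544 in edgeR). The PSPH ECR at the 3′ end was at 11.3 and 10.2 CPM in CTRL and 11.8 and 11.7 CPM in hnRNPC-targeted cells (0.13 ± 0.14, adjusted p = 0.583).

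Reads on these ECRs were present in the cytosolic enriched fraction as well. CPM are scaled within each fraction, so they give a share and not an amount per compartment. Carry-over of nuclear RNA into the cytosolic fraction was not tested here. In cytosolic RNA, 4 of 6 were higher in hnRNPC-targeted cells than in CTRL, beside a background of 2.11% higher. MIGA1 had 3.32 and 3.74 CPM in CTRL and 14.8 and 11.8 CPM in hnRNPC-targeted cells (1.91 ± 0.19, adjusted p = 5.21e-05 in edgeR), BRD8 0.829 and 1.997 against 7.18 and 6.68 CPM (2.31 ± 0.36), and PPP6C 0.222 and 0.914 against 3.81 and 2.46 CPM (2.48 ± 0.45). The intronic PSPH ECR rose by 1.38 ± 0.24. The MARS1 ECR did not pass the test there, at 1.18 and 1.46 CPM in CTRL and 1.14 and 1.73 CPM in hnRNPC-targeted cells (0.13 ± 0.38, adjusted p = 0.910).

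The gain of the MARS1 ECR in cytosolic RNA was smaller than in total RNA by 1.79 ± 0.55 on the log2 scale, which did not pass the test of the difference (adjusted p = 0.932 in edgeR). Without CTRL library 2 the difference was -2.28 ± 0.59 (adjusted p = 0.999). For no ECR of the 6 did the gain pass a test of difference between the compartments. Since even 1.79 ± 0.55 did not pass after adjustment over all ECRs tested, nothing is read about the 6 from that count. Within hnRNPC-targeted cells, the MARS1 ECR was lower in cytosolic than in total RNA (-1.04 ± 0.37, adjusted p = 0.0301, background 14.3% lower) and than in nuclear RNA, where it held 4.05 and 3.75 CPM (-1.44 ± 0.37, adjusted p = 0.00260, background 27.4% lower). The MIGA1 ECR went the other way, with 6.72 and 7.13 CPM in nuclear and 14.8 and 11.8 CPM in cytosolic RNA (0.94 ± 0.19, adjusted p = 0.000303), a difference under the threshold on fold. The PSPH ECR at the 3′ end held 6.70 and 9.14 CPM in nuclear and 16.1 and 17.3 CPM in cytosolic RNA (1.08 ± 0.14, background 3.12% higher), or 0.87 without nuclear library 1. The MARS1 difference between cytosolic and total RNA missed the call without total library 1 (-0.82) or cytosolic library 1 (-0.77). BRD8, at 14.6 and 13.1 CPM, and PPP6C, at 6.64 and 5.61 CPM, had higher CPM in nuclear than in cytosolic RNA, by less than the threshold on fold.

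**Figure D4:**
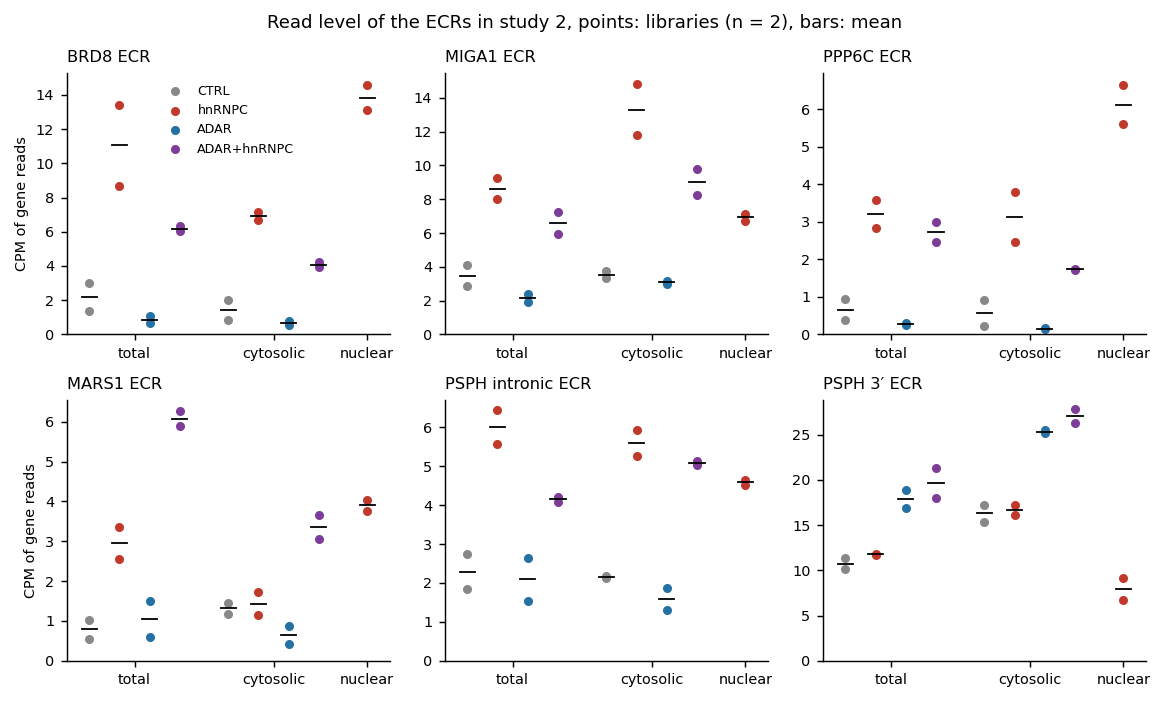
Reads on the 6 ECRs in study 2 in CPM of the gene total (y axis) by what was targeted and by RNA compartment (x axis), with 1 point per library and 2 libraries per group. In cytosolic RNA of hnRNPC-targeted cells the MIGA1 ECR lies above its level in total RNA and the MARS1 ECR below.

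Between ADAR+hnRNPC- and ADAR-targeted cells, 4 of 6 ECRs were higher in total RNA (background 9.64%) and 5 of 6 in cytosolic RNA (background 1.5%). The PPP6C and MARS1 ECRs passed the filter on low counts through the libraries with hnRNPC targeted, the higher side here. In the ADAR cytosolic libraries PPP6C held 9 and 11 reads and MARS1 29 and 55. Their calls and these counts are thus in part set by the filter. In cytosolic RNA, PPP6C held 0.133 and 0.177 CPM with ADAR targeted and 1.73 and 1.75 CPM with both targeted (3.48 ± 0.54), and MARS1 0.427 and 0.883 against 3.67 and 3.05 CPM (2.36 ± 0.40). The MARS1 call was lost without ADAR cytosolic library 1 (1.92, adjusted p = 0.0673). The intronic PSPH ECR lay just under the threshold on fold in total RNA, at 0.99 ± 0.25 (adjusted p = 0.00786 in edgeR).

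The MARS1 ECR was also higher with both targeted than with hnRNPC targeted, by 1.04 ± 0.35 in total RNA (adjusted p = 0.0485 in edgeR, background 2.19% higher) and by 1.22 ± 0.37 in cytosolic RNA (adjusted p = 0.0242, background 2.39% higher). The first call was lost without any 1 of 10 of the 18 libraries (0.85 to 1.23), and the second without hnRNPC cytosolic library 1 (0.96), ADAR+hnRNPC cytosolic library 1 (1.08) or library 2 (1.35). With ADAR targeted, the BRD8 ECR was lower than in CTRL in total RNA, at 1.07 and 0.643 CPM (-1.32 ± 0.39, adjusted p = 0.0260 in edgeR, background 6.48% lower). That call rests on CTRL library 2, since without it the log2 fold change was -0.65 ± 0.40 (adjusted p = 0.396), and without ADAR library 2 it was -1.01 (adjusted p = 0.206). The PSPH ECR at the 3′ end rose with ADAR targeting to 18.8 and 16.9 CPM, a change of 0.73 ± 0.13 (adjusted p = 0.00606), or 0.66 ± 0.16 (adjusted p = 0.0802) without CTRL library 2. The PSPH gene rose by 0.75 ± 0.10, and by 0.69 ± 0.13 without that library, both under the threshold on fold.

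Editing was read as the share of reads with the edited base over all sites of an ECR. An ECR was tested with at least 50 reads in every library, a call needs an adjusted p of at most 0.05, and 4 of the 6 ECRs could be tested: BRD8, MIGA1 and both of PSPH. Of the 2 sites per gene with the most reads in CTRL, those of MIGA1 and 1 each of PPP6C and BRD8 are given as windows of GRCh37 on the strand of the gene, with the edited adenosine in capitals, since they show how unequal neighbouring sites are:

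MIGA1, chr1:78256650-78256670: aaggctgagaAcagtggttta

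MIGA1, chr1:78256652-78256672: ggctgagaacAgtggtttatt

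PPP6C, chr9:127937072-127937092: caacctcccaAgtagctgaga

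BRD8, chr5:137509526-137509546: caaaaatactAgccaggtctg

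The MIGA1 adenosine at position 78256662 was edited in 14 of 39 reads (35.9%) in CTRL of day 4, in 106 of 198 reads (53.5%) in hnRNPC-targeted cells and in 22 of 40 reads (55.0%) with IFN-alpha. At position 78256660, closer to the 5′ end, the numbers were 0 of 39, 12 of 203 (5.91%) and 14 of 40 reads (35.0%). The PPP6C site at 127937082 was edited in 44 of 302 reads (14.6%) in hnRNPC-targeted cells and had 10 reads in CTRL, and the BRD8 site at 137509536 in 7 of 178 reads (3.93%). Over the 440 sites of the 5 intronic ECRs and the PSPH 3′ end, the base after the edited adenosine was G in 43.2%, against 24.6% of the 4867 adenosines of these stretches.

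With hnRNPC targeted, the BRD8 ECR was edited in a larger share of its reads at the sites kept. It was edited at 2.58%, 5.17% and 1.86% in CTRL of day 4, from 620, 329 and 215 reads, and at 10.4%, 11.6% and 12.3% in hnRNPC-targeted cells. All 3 hnRNPC libraries lay above all CTRL libraries. BRD8 sites with at least 1 edited read went from 26 to 147 of 178. The median reads per site went from 2 to 29, so that count would rise with depth also at an unchanged share. The log2 change in the ratio of edited to unedited reads was 2.32, 1.95 and 2.20 on days 3, 4 and 5, beside backgrounds of 0.773%, 4.45% and 6.92% higher. The other ECRs were not called, among them MIGA1 with a mean of 5.77% in CTRL and 8.63% with hnRNPC targeted on day 4. The paper kept a site only where all libraries of at least 1 treatment passed a minimum of 10 reads and of editing. No BRD8 site had a mean above 5 reads per library in CTRL of day 4, so none was kept through those libraries. Such a choice favours a higher share in the groups that kept the sites, and its part in the BRD8 difference was not tested.

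With ADAR targeted, editing of the 4 ECRs fell, as it did in most ECRs. Against CTRL, 3, 4 and 4 of the 4 ECRs were lower on days 3, 4 and 5, beside backgrounds of 80.6%, 81.9% and 81.6% lower. MIGA1 was edited at 7.09%, 4.505% and 5.73% in CTRL of day 4 and at 1.98%, 2.18% and 1.64% with ADAR targeted (-1.64 ± 0.29, adjusted p = 3.54e-06 in edgeR). The exception was BRD8 on day 3 (-0.53 ± 0.60, adjusted p = 0.402). On day 4 the BRD8 call (-1.41 ± 0.55) was lost without CTRL replicate 2 (-0.97) or ADAR replicate 1 (-1.05) and with limma on log2 ratios (adjusted p = 0.0759). Against hnRNPC-targeted cells, all 4 were lower with both targeted on each day, beside backgrounds of 79.2%, 85.0% and 57.8%. The BRD8 call of day 5 (-0.61 ± 0.25) was lost without any 1 of 4 replicates (-0.65 to -0.53), and with limma on log2 ratios BRD8 passed on none of the 3 days (adjusted p = 0.116, 0.184 and 0.387).

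With both targeted, BRD8 was edited at 6.20%, 6.90% and 6.72% on day 4, above the 3 CTRL libraries. The choice of sites described above bears on this difference too. IFN-alpha, which raises ADAR RNA (1055 to 1315 CPM against 364 to 421 CPM in CTRL), raised editing of 3 of the 4 ECRs, beside a background of 45.0% higher. MIGA1 reached 19.2%, 15.3% and 14.2% (1.63 ± 0.23, adjusted p = 7.31e-08 in edgeR), and 16 of its 51 sites were edited in at least 20% of reads, against 4 in CTRL. BRD8 did not pass the test (-0.53 ± 0.55, adjusted p = 0.436).

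**Figure D5:**
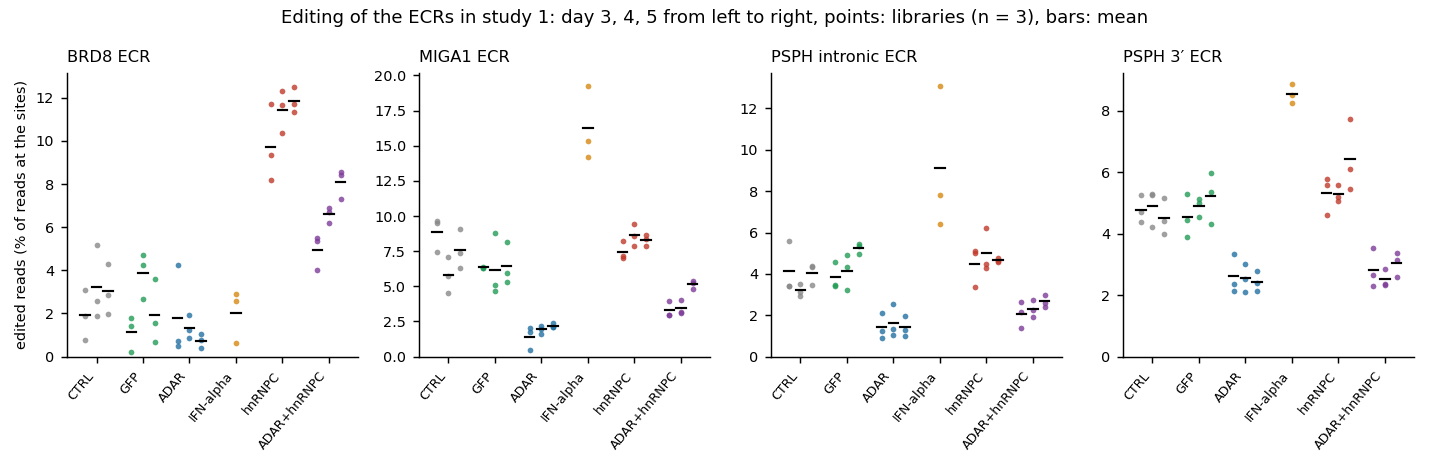
Percent of reads with the edited base over the sites of the 4 testable ECRs of study 1 (y axis) by what was targeted (x axis), with days 3, 4 and 5 from left to right and 1 point per library. IFN-alpha libraries lie highest for MIGA1, and within each day hnRNPC-targeted libraries lie highest for BRD8.

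In study 2, editing of 3 of the 4 ECRs was lower with ADAR targeted than in CTRL in total RNA (background 80.6%) and of 3 in cytosolic RNA (background 86.1%). All 4 were lower with both targeted than with hnRNPC targeted, in total (background 90.2%) and in cytosolic RNA (background 88.5%). BRD8 was edited at 10.7% in both hnRNPC libraries of total RNA and at 3.58% and 2.48% with both targeted (-1.96 ± 0.38, adjusted p = 5.38e-05 in edgeR). Its 2 CTRL libraries differed widely, at 0.676% of 444 reads and 6.92% of 1170 reads, and the comparison of ADAR-targeted cells with CTRL did not pass (-1.297 ± 0.66, adjusted p = 0.0735). Without CTRL library 2 it had the opposite sign (1.38 ± 0.88, adjusted p = 0.145). The other 3 ECRs were lower also without it. In cytosolic RNA the BRD8 call (-1.36 ± 0.62) was lost without any 1 of 4 libraries (-1.35 to -0.85) and with limma on log2 ratios (adjusted p = 0.129), as was that between ADAR+hnRNPC- and hnRNPC-targeted cells (adjusted p = 0.0502). The MARS1 ECR, with 28 and 118 reads over its sites in these CTRL libraries, was too shallow for the test.

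Genes that work with the 7 were held to the same call. Of 61 partner genes in 7 lists, none was called higher in hnRNPC-targeted cells on any day or in study 2. Of all 13193 genes tested in study 1, 84, 223 and 608 were called higher on days 3, 4 and 5. In study 2 the background in either direction was 0.637% of genes in total and 0.418% in cytosolic RNA. With lists of this size, nothing is read about the partners from these counts. PSAT1, the enzyme before PSPH in serine synthesis, was lower on day 5 (-1.03 ± 0.19, adjusted p = 9.02e-06 in edgeR), 1 of the 4 genes of its list. Without CTRL replicate 3 on all days PSAT1 was at -0.45. LARS1, the leucine-tRNA ligase of the complex that MARS1 belongs to, was lower on day 5 (-1.27 ± 0.05, adjusted p = 1.09e-22 in edgeR), 1 of 10. These were 2 of the 61, beside 405 of all 13193 genes called lower on that day. TRRAP, the scaffold of the NuA4/TIP60 complex that holds BRD8, was lower in total RNA of study 2 (-1.35 ± 0.25, adjusted p = 0.00782 in edgeR), 1 of 17, and stood at -0.66 without CTRL library 2 and at -1.24 (adjusted p = 0.0884) without hnRNPC library 2, so neither passed the call. Of the 12 splicing factors listed with RBM17, 7 of the signal recognition particle with SRP68, 5 of mitochondrial fusion with MIGA1 and 6 of the phosphatase with PPP6C, none was called. The medians of these 4 lists on day 4 were -0.04, -0.11, 0.02 and -0.15 on the log2 scale.

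Across the 16 group means of study 1, the gene levels most like those of MARS1 were SHMT2 (Pearson's r = 0.961), an enzyme of mitochondrial serine and glycine metabolism, and MYOF (0.959). For BRD8 they were PSMD5 (0.970) and ABCC6P2 (0.969), and for PPP6C LZIC (0.983) and COX16 (0.980). For RBM17 they were PPWD1 (0.952) and GCNA (0.952), for SRP68 GEMIN7 (0.940), for MIGA1 FBXL17 (0.954) and SEPTIN7 (0.952), and for PSPH ENSG00000262879 (0.978) and ZKSCAN8P1 (0.978). These correlations are a description over groups that share clone, days and depth.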

How the data were processed

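RNA-seq reads of 66 THP-1 libraries were aligned by the authors to GRCh37 with STAR 2.5.4a, and the deposited tables hold raw counts of uniquely mapped reads per gene, intron and ECR, and per editing site the edited and total reads. Tools named in the submitters' processing notes include featureCounts and bedtools. Introns were deposited for study 1 and are genes minus principal exons. Whether counting used strand is not given in the sources used here.

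Counts were analysed with edgeR 4.0.16 (R 4.3.3; quasi-likelihood test, Benjamini-Hochberg adjustment over all features tested), with 1 model over all groups of a study and TMM-scaled gene totals as library sizes for introns and ECRs too. Features with few reads were left out. Calls required a log2 fold change of 1 or more in size with an adjusted p no higher than 0.05, and for editing the adjusted p alone. CPM are counts per 1000000 of the scaled gene total, and SE is that of the log2 fold change. Tests of differences between responses in study 2 were added after the data were seen. Values in hnRNPC-targeted cells of study 1 carry no test because they chose the genes. The 7 genes, the partner lists and the marker lists were chosen with earlier results of these data known. Named features are the introns and ECRs called on day 4, the most-counted other intron per gene, up to 2 editing sites per gene, the partner genes called and the 2 genes most like each member. Of the markers and of these genes, 1 each is not reported here. No 2 libraries agreed within sampling noise. Alternatives were another scaling, limma-voom 3.58.1, DESeq2 1.42.0, other filters, a replicate block and each replicate left out. The steps were tested on simulated data. Spreads between libraries, not counting intervals, are given as errors.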

Additional observations from a re-analysis of the deposited data

Results flagged for a closer look

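In total RNA of study 2, the response of 2 of the 7 genes to hnRNPC targeting differed with and without ADAR targeting, by a test of the difference itself that 2561 of 13650 genes passed. SRP68 stood at 58.0 and 112 CPM in CTRL, 61.1 and 54.7 CPM in hnRNPC-targeted, 55.2 and 61.5 CPM in ADAR-targeted and 98.2 and 107 CPM in ADAR+hnRNPC-targeted cells. Its difference in response was 1.37 ± 0.31 on the log2 scale (adjusted p = 0.0134 in edgeR). CTRL library 2 lay near the ADAR+hnRNPC libraries and apart from CTRL library 1, and without it the difference was 0.82 ± 0.21 (adjusted p = 0.0431). In cytosolic RNA, SRP68 was at 78.1 to 111 CPM in all 4 conditions. In nuclear RNA of hnRNPC-targeted cells it was at 109 and 116 CPM, so both fractions lay above total RNA of these cells. No such difference stood out on day 4 of study 1. There its log2 fold change was 0.28 for hnRNPC-targeted cells over CTRL and 0.31 for ADAR+hnRNPC- over ADAR-targeted cells.

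RBM17 stood at 88.7 and 79.6 CPM in CTRL, 102 and 103 CPM in hnRNPC-targeted, 89.4 and 92.5 CPM in ADAR-targeted and 76.6 and 75.2 CPM in ADAR+hnRNPC-targeted cells. Its difference in response was -0.55 ± 0.14 (adjusted p = 0.0214 in edgeR). Without CTRL library 2 it was -0.47 ± 0.15 (adjusted p = 0.101), and 512 genes then passed. It also missed the threshold without hnRNPC library 2 (adjusted p = 0.0858 in edgeR) and without any 1 of 3 other libraries, and SRP68 without hnRNPC library 2 (adjusted p = 0.0720) or ADAR+hnRNPC library 2 (adjusted p = 0.0503). The part of CTRL library 2 in both results was not tested beyond leaving it out. On day 4 of study 1, RBM17 had log2 fold changes of 0.40 for hnRNPC-targeted cells over CTRL and 0.15 for ADAR+hnRNPC- over ADAR-targeted cells.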

How the results depend on the processing

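No called result reversed its direction under any alternative run, and BRD8 editing between ADAR-targeted and CTRL cells in total RNA, which was not called, changed sign without CTRL library 2. Of 797 values of single called features under other settings, 776 kept their side of the threshold and 21 did not. Of 552 counts of calls, 525 stayed within 1.5 times. The cause of the changes below was not tested unless named.

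In study 1, the count of partner genes called lower on day 5 went from 2 to 1 with limma-voom and with a replicate block, and PSAT1 missed the call also with GFP as control (-0.35). Member introns called between ADAR+hnRNPC- and hnRNPC-targeted cells on day 5 went from 1 to 8 with no low-count filter and to 2 with feature-table totals as library size. In total RNA of study 2, partner genes called went from 1 to 2 with no low-count filter and with the DESeq2 Wald test. Member ECRs called between ADAR-targeted and CTRL cells went from 1 to 0 with limma-voom and to 2 with the DESeq2 Wald test. Between ADAR+hnRNPC- and hnRNPC-targeted cells they went from 1 to 0 with DESeq2 size factors, with no low-count filter and with the replicate block (adjusted p = 0.0557 for the MARS1 ECR in edgeR). In cytosolic RNA, ECRs called between ADAR-targeted and CTRL cells went from 0 to 1 with DESeq2 size factors and with feature-table totals, and to 2 with the DESeq2 Wald test. The ECR called between cytosolic and total RNA of hnRNPC-targeted cells went from 1 to 0 with feature-table totals. With no low-count filter, 1 member gene differed between compartments in its response with ADAR targeted, against 0. With only sites of at least 10 reads in every library, 1 member ECR had changed editing in each of 11 comparisons that otherwise had 3 or 4, since fewer ECRs could be tested. With limma on log2 ratios, the BRD8 editing calls between ADAR+hnRNPC- and hnRNPC-targeted cells of study 1 were lost (adjusted p = 0.116, 0.184 and 0.387), as were those between ADAR-targeted and CTRL cells on day 4 (0.0759) and in cytosolic RNA (0.129) and between ADAR+hnRNPC- and hnRNPC-targeted cytosolic RNA (0.0502).

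Leaving out 1 replicate at a time (on all days of its group in study 1, 1 library in study 2, where the remaining library of a pair is taken to vary like the other groups) gave these ranges. In study 1, partner genes called on day 5 ranged from 1 to 2, and introns and ECRs called between ADAR+hnRNPC- and hnRNPC-targeted cells on day 5 from 1 to 2 and from 0 to 1. In study 2, partner genes called in total RNA ranged from 0 to 4, member genes called between ADAR+hnRNPC- and hnRNPC-targeted cytosolic RNA from 0 to 1, and between cytosolic and nuclear RNA from 0 to 1. ECRs called ranged from 0 to 2 between ADAR-targeted and CTRL cells in total and in cytosolic RNA, from 0 to 1 between ADAR+hnRNPC- and hnRNPC-targeted cells in both, from 0 to 2, 0 to 1 and 0 to 1 between cytosolic and total RNA of CTRL, hnRNPC- and ADAR-targeted cells, and from 1 to 4 between cytosolic and nuclear RNA. Member genes with a difference in response ranged from 0 to 1 between compartments, both without and with ADAR targeted, and from 0 to 3 with against without ADAR targeting in total RNA. The RBM17 difference ranged from -0.63 to -0.47 and that of SRP68 from 0.82 to 1.76. Without hnRNPC total RNA library 2, both missed the threshold (adjusted p = 0.0858 and 0.0720 in edgeR), and so did RBM17 without 4 and SRP68 without 1 other libraries.

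Whether a replicate number marks the same experiment in each group is not given in the sources used here, and not every pair of same-numbered libraries correlated over 0.1, so the samples were not taken as paired. The deviations of same-numbered libraries leaned positive, with a median correlation of 0.169 in study 1, against -0.0808 for other numbers, and of 0.153 in study 2. On day 4, replicate 1 was the highest in all 6 groups for the BRD8 and the MARS1 ECR. The correlations ranged from -0.365 to 0.748 (220 of 360 pairs over 0.1) in study 1 and from -0.336 to 0.445 (44 of 72) in study 2. The replicate block changed no other count of calls.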
